A study of Mus musculus with 6 samples.

Results

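Tmem45b, Mme, Rgs7, Adrbk2, Sgk2, Kifc3, Nipsnap1 and Fhl1 are 8 genes, among the 20295 of the count table, that had been seen at higher levels in brown than in white fat cell cultures and that lie outside the classic thermogenic set led by Ucp1. They were chosen by their differences in these same libraries between brown fat (BAT) and both white depots, with no set threshold, so those differences, and the counts of calls made from them, are given as a description and show nothing independent of the choice. The pair of depots that the choice did not use is inguinal (iWAT) against epididymal white fat (eWAT), and p-values for the 8 genes are given for that pair alone. RNA was sequenced as 6 libraries, 2 each from cultured BAT, iWAT and eWAT cells isolated from male NMRI mice aged 4 to 5 weeks. The BAT cells were a pool of the interscapular, cervical and axillary pads, the iWAT cells came from the inguinal pad and the eWAT cells from the epididymal pad. In all 3 groups the stromal-vascular cells, a mixture freed from fat with collagenase and parted from mature adipocytes, were differentiated in culture. Their medium held insulin at 30 nM, rosiglitazone at 1 µM and 10% newborn calf serum, so every culture carried rosiglitazone, which activates the adipogenic receptor Pparg. No cold exposure or adrenergic agonist is named. They were harvested on day 8, although the count table tags its columns with day 7, and cultures were kept where over 50% of cells had differentiated. The labels do not say that replicates came from separate animals or cultures, so p-values measure the spread among these 6 libraries alone, and that spread may be technical.

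Brown adipocytes burn fuel to make heat through Ucp1, which lets protons leak across the inner mitochondrial membrane, and they do so when noradrenaline acts on beta-adrenergic receptors that raise cyclic AMP. The 8 genes encode proteins of different kinds, and no link between them and that system was tested here. Mme (neprilysin) is a zinc peptidase of the cell surface that cleaves natriuretic peptides and other small peptides outside the cell. Tmem45b is a multi-pass membrane protein whose function is little known. Rgs7 speeds up GTP hydrolysis by Gi/o proteins and so ends their signal. Adrbk2 (also called Grk3) phosphorylates active G protein-coupled receptors so that arrestins bind them. Sgk2 is a serine/threonine kinase related to Akt that, in cells of other kinds, acts on ion channels and transporters. Kifc3 is a kinesin that walks to the minus end of microtubules. Nipsnap1 is a mitochondrial protein that in human cells marks damaged mitochondria for mitophagy. Fhl1 is built of LIM domains, which bind other proteins, and is best known from skeletal and heart muscle.

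RefSeq windows of the bases before an annotated start (build GRCm38.p6) were at hand for 4 of the 8 genes, Rgs7, Mme, Nipsnap1 and Fhl1, and not for Tmem45b, Kifc3, Adrbk2 and Sgk2. The 250 bases before the start are shown for the 4 windows that overlap no annotated GENCODE exon, because all 8 genes were highest in BAT. They are written 5′ to 3′ on the gene's strand and end at the base before the start. Capitals mark matches, on either strand, to any of the motifs searched.
Rgs7, chr1:175492546-175492795, minus strand: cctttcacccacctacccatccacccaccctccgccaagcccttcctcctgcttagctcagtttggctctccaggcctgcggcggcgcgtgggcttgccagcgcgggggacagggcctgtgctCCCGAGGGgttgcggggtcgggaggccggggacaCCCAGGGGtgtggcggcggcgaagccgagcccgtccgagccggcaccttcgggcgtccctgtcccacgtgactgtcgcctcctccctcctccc
Mme, chr3:63294961-63295210, plus strand: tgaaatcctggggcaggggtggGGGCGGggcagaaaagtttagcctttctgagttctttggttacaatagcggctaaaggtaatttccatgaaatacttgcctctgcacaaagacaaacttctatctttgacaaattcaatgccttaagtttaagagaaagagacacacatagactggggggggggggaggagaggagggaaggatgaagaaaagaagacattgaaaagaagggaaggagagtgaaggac
Nipsnap1, chr11:4873701-4873950, plus strand: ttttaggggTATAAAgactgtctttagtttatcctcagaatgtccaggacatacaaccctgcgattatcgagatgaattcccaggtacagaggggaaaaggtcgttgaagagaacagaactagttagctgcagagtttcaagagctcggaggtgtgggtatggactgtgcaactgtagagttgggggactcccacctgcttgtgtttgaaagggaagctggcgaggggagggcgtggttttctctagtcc
Fhl1, chrX:56786277-56786526, plus strand: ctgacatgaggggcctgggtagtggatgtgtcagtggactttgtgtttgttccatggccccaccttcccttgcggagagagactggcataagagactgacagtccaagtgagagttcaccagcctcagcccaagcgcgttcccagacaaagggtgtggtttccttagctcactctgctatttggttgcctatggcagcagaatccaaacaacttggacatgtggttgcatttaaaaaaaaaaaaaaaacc

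The search covered 10 motifs on both strands. AGGTCA is the core bound by nuclear receptors. The estrogen-related receptors bind it within TCAAGGTCA, which contains AGGTCA. CCCNNGGG is the core bound by EBF factors. The factors C/EBP and NFI were searched as TTGCGCAA for C/EBP and as TTGGCA for NFI. The cyclic AMP response element was searched whole, as TGACGTCA, and by its first bases, as TGACG, so that a match to the whole is also one to its part. General promoter elements were the TATA element (letters TATAAA searched), the GC box, with GGGCGG as its letters, and the CCAAT box, searched by the letters of its name. EBF factors include Ebf2, which marks brown fat precursors. In the Rgs7 window the 2 runs in capitals match the EBF core, 127 to 120 and 93 to 86 bases before the start. The 4 genes have 7 windows, with 3 for Mme and 2 for Fhl1. The EBF core was found in 3 of them, a window of Rgs7 and a pair of Mme windows that share part of their bases, and in 11.8% of all 32851 windows. The CCAAT box was found in 3 of the 7 and in 33.8% of all. The Mme window shown holds a GC box, which was found in 3 of the 7 windows and in 32.7% of all windows. The Nipsnap1 window holds TATAAA, found in 2 of the 7 and in 12.4% of all, but it lies 241 to 236 bases before the start. The Fhl1 window shown holds no match. AGGTCA (14.0% of all windows), TCAAGGTCA (0.387%), TTGCGCAA (0.164%), TTGGCA (12.3%), TGACGTCA (1.55%) and TGACG (17.8%) matched none of the 7 windows, which says only that these letters are not in these windows. The Rgs7 window was rich in G and C (72.4%), against a median of 52.4% over all windows. The other windows shown had 45.6% (Mme), 48.8% (Nipsnap1) and 49.2% (Fhl1). The pair of Mme windows with the EBF core, not shown, had 73.2% and 73.6%. The fixed letters of CCCNNGGG are all G or C, so windows rich in G and C match it more readily. The part of base content in the matches was not tested.

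Total counts per library ran from 2889038 (BAT replicate 2) to 4807449 (BAT replicate 1), so 3 counts, the limit that a count of 0 allows, came to between 0.634 and 1.15 CPM (counts set to the same total in every library, with trimmed-mean factors). All 10 brown markers (Ucp1, Cidea, Cox7a1, Dio2, Prdm16, Ppargc1a, Zic1, Lhx8, Ebf2 and Elovl3) had their highest mean CPM in BAT. Ucp1, Cidea and Cox7a1 were higher in both BAT libraries than in all white ones. In Elovl3, Ppargc1a and Prdm16 the BAT and iWAT libraries overlapped. At an edgeR adjusted p below 0.05, 7 of the 10 were higher in BAT than in eWAT and 2 than in iWAT, with 0 lower. The summed level of 8 general adipocyte markers was higher in both BAT libraries than in all white ones and overlapped between the white depots. It was 40450 and 52990 CPM in BAT, 35270 and 33450 CPM in iWAT and 31040 and 36410 CPM in eWAT, mostly from Fabp4 and Cd36. By mean CPM, Fabp4, Cd36 and Pparg were highest in BAT, Plin1, Lipe, Cidec and Lpl were lowest in BAT, and Adipoq lay between the white depots. Over the 8, the median log2 difference was -0.08 for BAT minus eWAT and 0.08 for BAT minus iWAT. For either, 0 had an edgeR adjusted p below 0.05. The summed level of 9 preadipocyte or fibroblast markers, mostly from Col3a1, was 3960 and 2906 CPM in BAT, against 19340 and 20620 CPM in iWAT and 16830 and 18360 CPM in eWAT. At an edgeR adjusted p below 0.05, 5 of the 9 were lower and 1 higher in BAT than in eWAT, and 4 lower and 0 higher than in iWAT. Thy1 averaged 59.7 CPM in BAT, 135 CPM in iWAT and 16.2 CPM in eWAT. The sum of 8 macrophage markers was 428 and 93.7 CPM in BAT, 636 and 185 CPM in iWAT and 4675 and 2061 CPM in eWAT. The depots thus differed in markers of other cells as well, and the part of this in the values below was not tested. In bulk cultures, fewer cells of a type and less RNA per cell cannot be told apart.

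All 8 genes passed the filter on low counts, and in all 8 both BAT libraries lay above all 4 white ones, as they did for 18.4% of the 11732 genes tested. On the log2 scale the 8 differences had a median of 2.74 for BAT minus eWAT (range 1.46 to 5.35), beside -0.03 over all tested genes. For BAT minus iWAT the median was 2.65 (range 1.39 to 4.66), beside -0.02 over all tested genes. Calls are those of edgeR's quasi-likelihood test with an adjusted p under 0.05 over all tested genes. Against eWAT, 8 of 8 were called higher in BAT, as were 2.71% of all tested genes, with 3.75% called lower. Against iWAT, 7 of 8, all but Sgk2, were called higher in BAT, as were 0.145% of all tested genes, with 0.895% called lower. Both calls were met by 7 of the 8 and by 15 genes in all (0.128%), so these 7 make up 46.7% of that list and 87.5% of the 8. The other 8 on it are Lyrm5, Ebf2, Ucp1, Sucla2, Col27a1, 1810011O10Rik, Hadhb and Akr1b10. These counts follow from how the genes were chosen and nothing is read from them. They also depended on single libraries. Against eWAT the 8 calls became 1 (Tmem45b) without BAT replicate 2, 5 and 4 without iWAT replicates 1 and 2, and 3 and 2 without eWAT replicates 1 and 2, and stayed at 8 without BAT replicate 1. Against iWAT the 7 calls became 1 (Tmem45b) without BAT replicate 1, 0 without BAT replicate 2 or either iWAT replicate, and 4 without either eWAT replicate. Ordered by the smaller of the 2 log2 differences among all tested genes, Rgs7 stood at rank 6, Tmem45b at 11, Sgk2 at 16, Kifc3 at 18, Adrbk2 at 24, Mme at 33, Nipsnap1 at 37 and Fhl1 at 101.

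**Figure D1:**
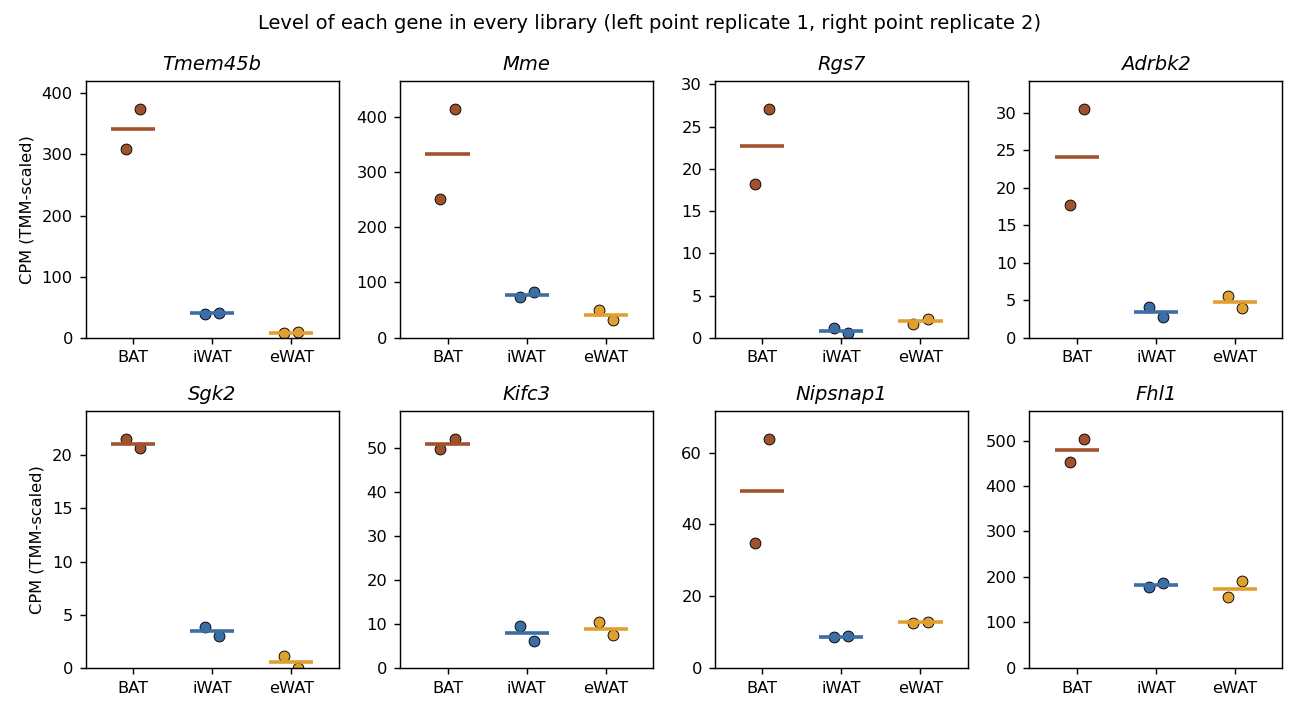
Level in CPM (linear axes from 0, scaled with trimmed-mean factors) of each of the 8 genes in the 2 BAT, 2 iWAT and 2 eWAT libraries, with the points of replicates 1 and 2 side by side and a bar at the mean. Both BAT points lie above all white points in every panel, and the lowest BAT point lies from 2.37 (Fhl1) to 7.99 (Rgs7) times above the highest white one.

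The genes of the cell membrane, Tmem45b and Mme, were abundant in BAT. Tmem45b (NM_144936; mm9 chromosome 9, 31233781 to 31271823, minus strand, 1575 counted bases) had 309 and 375 CPM in the BAT libraries, 39.5 and 40.0 CPM in the iWAT libraries and 7.69 and 9.10 CPM in the eWAT libraries. It formed a staircase with no overlap between depots and little spread in each, with means of 342 ± 46.9 CPM in BAT, 39.7 ± 0.369 CPM in iWAT and 8.39 ± 1.00 CPM in eWAT (SD, n = 2 each, as below). The fitted log2 differences were 5.35 ± 0.22 (SE) for BAT minus eWAT and 3.10 ± 0.19 for BAT minus iWAT. Per length, Tmem45b was the most abundant of the 8 genes in BAT, at 217 ± 29.8 RPKM (CPM per kilobase counted), with Fhl1 at 201 ± 15.0 RPKM within its spread.

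Mme (NM_001289462; chromosome 3, 63099357 to 63187635, plus strand, 6088 counted bases) had 251 and 415 CPM in the BAT libraries, 73.1 and 83.2 CPM in the iWAT libraries and 51.0 and 32.7 CPM in the eWAT libraries. The depots again fell in the order BAT, iWAT, eWAT without overlap, but the BAT libraries stood far apart from each other. The log2 difference was 2.99 ± 0.33 for BAT minus eWAT and 2.09 ± 0.32 for BAT minus iWAT. Mme is also known from fibroblast-like stromal cells. The fibroblast marker sum was 3960 and 2906 CPM in BAT, 19340 and 20620 CPM in iWAT and 16830 and 18360 CPM in eWAT, and its part in the Mme values was not tested.

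The 3 signalling genes were of low abundance. Rgs7 (NM_011880; chromosome 1, 176989207 to 177422676, minus strand, 2409 counted bases) had 18.2 and 27.2 CPM in the BAT libraries, 1.20 and 0.503 CPM in the iWAT libraries and 1.63 and 2.28 CPM in the eWAT libraries. The counts behind these values were 86 and 71 in BAT, 5 and 2 in iWAT and 7 and 8 in eWAT, so Rgs7 was close to the limit of detection in the white cultures. Over the summed counts the ratio of BAT to iWAT was 24.8 with an exact 95% interval of 11.8 to 62.8. That of BAT to eWAT was 11.1 with an interval of 6.54 to 20.3, and both intervals cover counting error only. The fitted log2 differences were 3.52 ± 0.46 for BAT minus eWAT and 4.66 ± 0.51 for BAT minus iWAT, which made Rgs7 the gene with the largest difference from iWAT among the 8. For BAT minus iWAT it was 5.40 without iWAT replicate 1 and 4.19 without iWAT replicate 2.

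Adrbk2 (NM_177078; chromosome 5, 113339498 to 113444558, minus strand, 6561 counted bases) had 17.7 and 30.6 CPM in the BAT libraries, 4.09 and 2.77 CPM in the iWAT libraries and 5.59 and 3.98 CPM in the eWAT libraries. The white libraries overlapped, and the lower BAT library was 3.18 times the highest white one. Its log2 difference was 2.31 ± 0.41 for BAT minus eWAT and 2.79 ± 0.43 for BAT minus iWAT.

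Sgk2 (NM_001291154; chromosome 2, 162813217 to 162839875, plus strand, 3068 counted bases) had 21.6 and 20.7 CPM in the BAT libraries, 3.85 and 3.02 CPM in the iWAT libraries and 1.16 and 0 CPM in the eWAT libraries. The eWAT values come from 5 counts and 0 counts, where 3 counts in eWAT replicate 2 would be 0.853 CPM. The ratio of BAT to eWAT over summed counts was 33.2, with an exact 95% interval of 13.9 to 104 for counting error. Set against 3 counts in eWAT replicate 2 alone, the BAT mean was at least 24.7-fold higher and the iWAT mean at least 4.02-fold higher. The fitted log2 differences of 5.00 ± 0.73 for BAT minus eWAT and 2.61 ± 0.59 for BAT minus iWAT carry the widest errors among the 8 genes. Leaving out eWAT replicate 2 gave 4.14 for BAT minus eWAT. Leaving out eWAT replicate 1 gave 9.33, where eWAT has 0 counts and the fitted value is no bound.

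Kifc3, the motor, had the closest BAT replicates in CPM after Sgk2. Kifc3 (NM_001145831; chromosome 8, 97623728 to 97666440, minus strand, 3366 counted bases) had 49.7 and 52.0 CPM in the BAT libraries, 9.62 and 6.03 CPM in the iWAT libraries and 10.5 and 7.39 CPM in the eWAT libraries. The white depots overlapped in part, and the log2 difference was 2.50 ± 0.31 for BAT minus eWAT and 2.69 ± 0.31 for BAT minus iWAT.

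Nipsnap1 (NM_008698; chromosome 11, 4774006 to 4794203, plus strand, 1874 counted bases) had 34.9 and 63.9 CPM in the BAT libraries, 8.66 and 8.80 CPM in the iWAT libraries and 12.6 and 12.8 CPM in the eWAT libraries. Replicate 1 over replicate 2 was 0.984 in iWAT and 0.983 in eWAT, while the BAT replicates differed the most among the 8 genes. The log2 difference was 1.95 ± 0.33 for BAT minus eWAT and 2.48 ± 0.34 for BAT minus iWAT.

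Fhl1 (NM_010211; chromosome X, 53984938 to 54046523, plus strand, 2382 counted bases) had 453 and 504 CPM in the BAT libraries, 177 and 187 CPM in the iWAT libraries and 157 and 192 CPM in the eWAT libraries. It had the smallest differences of the 8, at 1.46 ± 0.18 for BAT minus eWAT and 1.39 ± 0.18 for BAT minus iWAT on the log2 scale, and remained abundant in both white depots (76.5 ± 2.97 RPKM in iWAT and 73.1 ± 10.4 RPKM in eWAT). As Fhl1 is a muscle gene, 14 skeletal muscle markers were summed. They came to 62.3 and 47.0 CPM in BAT, 23.1 and 32.4 CPM in iWAT and 56.1 and 26.7 CPM in eWAT, and their part in the Fhl1 values was not tested. Of the 5 muscle markers with enough counts to be tested, edgeR called 1 against eWAT, lower in BAT, and 0 against iWAT. By mean CPM, 9 of the 14 were highest in BAT, and in 5 of them (Myh1, Myh3, Actn2, Mylpf and Ttn) both BAT libraries lay above all white ones. Ttn, the giant sarcomere protein titin, had 24.9 and 19.1 CPM in BAT, 5.77 and 8.80 CPM in iWAT and 7.92 and 3.98 CPM in eWAT. Myh1, a myosin heavy chain, had 4.44 and 4.21 CPM in BAT, 0.240 and 1.51 CPM in iWAT and 0.233 and 0 CPM in eWAT. Of the markers that define muscle, Myod1 was at 0 counts in both BAT libraries, Ckm had 1 count in BAT replicate 1 and 0 in the other 5 libraries, and Myog had 13 counts in BAT replicate 1 and 0 in BAT replicate 2.

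Between iWAT and eWAT, the pair that the choice did not use, the 8 genes had no common direction. Their log2 differences, iWAT minus eWAT, ran from -1.14 to 2.39 with a median of -0.06 (0.01 over all tested genes), 4 above 0 and 4 below. The edgeR test called 0 of the 8 and 0% of all tested genes, and 3 of the 8 and 1096 of all had an unadjusted p below 0.05. With limma voom 0 of the 8 were called, and DESeq2 called 1, Tmem45b, where it called 2.57% of all genes. With the replicate number as a further term, edgeR called 1 of the 8, Tmem45b, and 563 of all tested genes. The labels do not say that these numbers pair the samples. In 5 of the 8 the iWAT and eWAT libraries did not overlap, as in 38.0% of all tested genes.

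Tmem45b, Mme and Sgk2 were the 3 genes with both iWAT libraries above both eWAT libraries. For Tmem45b, iWAT exceeded eWAT by 2.24 ± 0.20 (log2, SE), with an edgeR adjusted p of 0.0759 at an unadjusted p of 2.32e-05. Over the 13 alternatives the difference stayed between 2.12 and 2.36 with adjusted p from 2.26e-09 to 0.318 and a call in 3. For Mme the difference was 0.90 ± 0.32 (edgeR adjusted p = 0.421). For Sgk2 it was 2.39 ± 0.81 (edgeR adjusted p = 0.394), on 28 counts in iWAT and 5 counts in eWAT. Without eWAT replicate 2 the difference was 1.54 for Sgk2 and 0.62 for Mme. Without eWAT replicate 1 it was 1.26 for Mme and a fitted 6.72, against 0 counts, for Sgk2. The authors' deposited table gave iWAT over eWAT log2 fold changes of 2.23 for Tmem45b, 0.91 for Mme and 2.40 for Sgk2, with adjusted p-values of 2.44e-19, 0.0026 and 0.0016. In the authors' deposited table these were the only 3 of the 8 below 0.05, among 1730 of 20295 genes.

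Rgs7 and Nipsnap1 went the other way, with both iWAT libraries below both eWAT libraries. The log2 difference, iWAT minus eWAT, was -1.14 ± 0.60 for Rgs7 (edgeR adjusted p = 0.714), on 7 counts in iWAT and 15 counts in eWAT, and -0.54 ± 0.35 for Nipsnap1 (edgeR adjusted p = 0.825). In Kifc3 (-0.20 ± 0.32, edgeR adjusted p = 0.992), Adrbk2 (-0.48 ± 0.45, edgeR adjusted p = 0.943) and Fhl1 (0.07 ± 0.18, edgeR adjusted p = 0.994) the white libraries overlapped. Without iWAT replicate 1 the difference was -1.89 for Rgs7 and -0.81 for Adrbk2. Without iWAT replicate 2 it was -0.67 for Rgs7 and -0.23 for Adrbk2, and without eWAT replicate 1 it was -0.21 for Adrbk2. The sign for Kifc3 turned to 0.08 without eWAT replicate 1 and to 0.10 without iWAT replicate 2, and that for Fhl1 to -0.07 without eWAT replicate 1. The macrophage marker sum stood at 636 and 185 CPM in iWAT against 4675 and 2061 CPM in eWAT, and its part in these differences was not tested.

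The thermogenic genes Ucp1, Cidea and Cox7a1 had higher levels in iWAT than in eWAT, and the 8 genes split over this. Of the 10 brown markers, Dio2 went the other way by mean CPM, at 1.74 CPM in iWAT and 3.04 CPM in eWAT. Ebf2 was nearly level, at 80.0 CPM in iWAT and 74.3 CPM in eWAT, and the rest were higher in iWAT. For iWAT minus eWAT, edgeR called 0 of the 10. Ucp1 had 4924 and 9294 CPM in BAT, 1114 and 995 CPM in iWAT and 59.6 and 62.9 CPM in eWAT. Its log2 difference of 4.11 ± 0.38 for iWAT minus eWAT (edgeR adjusted p = 0.0759) was 59.9% of that for BAT minus eWAT, 6.86 ± 0.43. For Cidea, a lipid droplet protein of brown fat, the share was 54.0%, and for Cox7a1, a subunit of cytochrome c oxidase, it was 49.0%. The same share was 47.8% for Sgk2, 41.9% for Tmem45b and 30.0% for Mme, but 4.56% for Fhl1. It was negative for Kifc3 (-7.85%), Adrbk2 (-21.0%), Nipsnap1 (-27.6%) and Rgs7 (-32.5%), where the iWAT mean was below that of eWAT. These shares are a description, since the BAT libraries chose the genes, and that of Sgk2 rests on 5 counts in eWAT. Of the other 8 genes called higher in BAT against both white depots, 7 had an iWAT minus eWAT difference above 0, with a median of 0.64 and a range of -0.42 to 4.11.

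**Figure D2:**
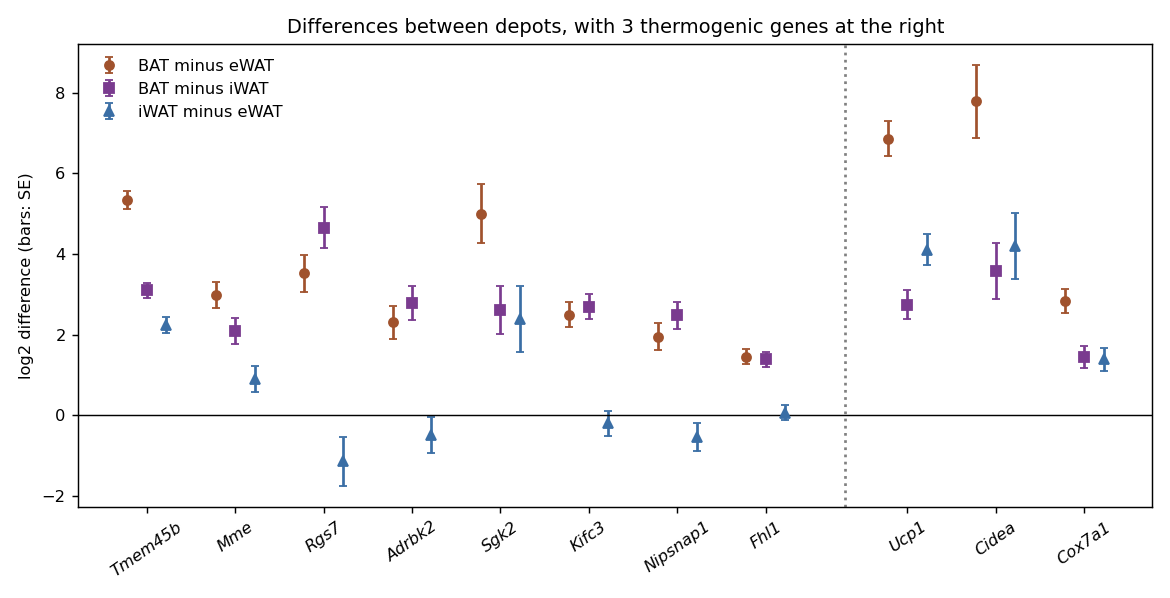
Fitted log2 differences (points) with standard errors (bars) between BAT and eWAT, BAT and iWAT, and iWAT and eWAT, each the first minus the second, for the 8 genes and, right of the dotted line, for Ucp1, Cidea and Cox7a1. The iWAT minus eWAT points lie near or below 0 for Rgs7 (-1.14), Adrbk2 (-0.48), Kifc3 (-0.20), Nipsnap1 (-0.54) and Fhl1 (0.07), and above 0 for Tmem45b (2.24), Sgk2 (2.39), Mme (0.90) and the 3 thermogenic genes.

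The BAT replicates were not equal. Of the 8 genes, 7 were higher in BAT replicate 2 than in replicate 1, and the ratio of replicate 1 to replicate 2 was 0.546 for Nipsnap1, 0.580 for Adrbk2, 0.606 for Mme and 0.669 for Rgs7. These 4 lay below the lower quartile, 0.773, of the 9946 genes with a mean of at least 5 CPM in BAT, whose median ratio was 0.947 and upper quartile 1.21. Tmem45b (0.823), Fhl1 (0.900), Kifc3 (0.955) and Sgk2 (1.04) lay inside the quartiles. Ucp1 (0.530), Cox7a1 (0.597), Cidea (0.626) and the general adipocyte gene Adipoq (0.674) were lower in replicate 1 as well. Replicate 1 had the higher marker sums of fibroblasts, 3960 CPM against 2906 CPM in replicate 2, and of macrophages, 428 CPM against 93.7 CPM, and the lower sum of adipocyte markers, 40450 CPM against 52990 CPM. The part of these in the ratios was not tested. Without BAT replicate 2, the log2 difference for BAT minus eWAT was 1.45 for Nipsnap1, 1.87 for Adrbk2 and 2.58 for Mme.

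**Figure D3:**
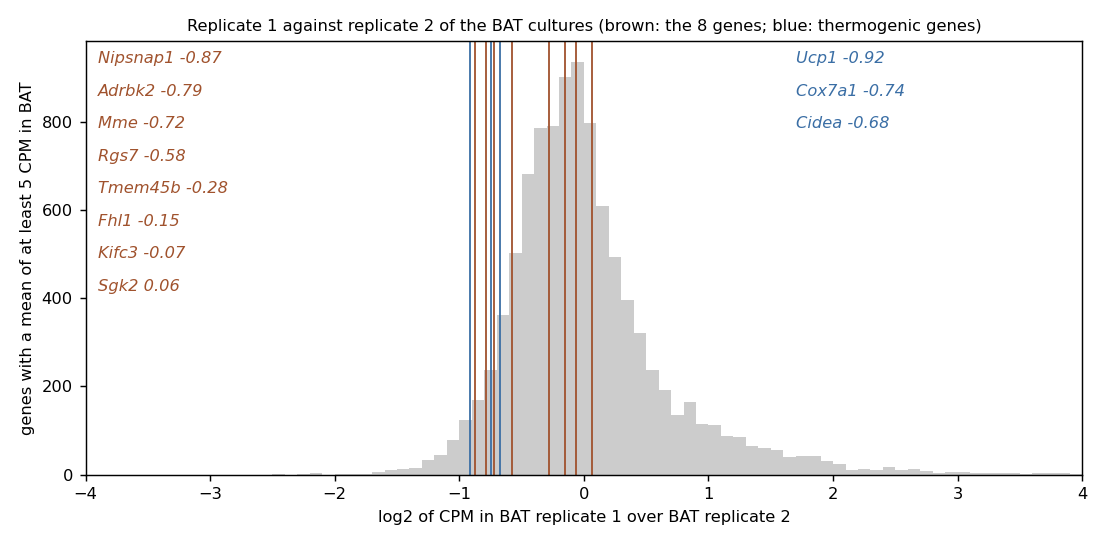
Histogram of the log2 ratio of CPM in BAT replicate 1 over BAT replicate 2 for genes with a mean of at least 5 CPM in BAT, with vertical lines for the 8 genes (brown) and for Ucp1, Cox7a1 and Cidea (blue), whose log2 ratios are listed in the same colours. The lines of Nipsnap1 (ratio 0.546), Adrbk2 (0.580) and Mme (0.606) lie among those of the thermogenic genes (0.530 to 0.626), and that of Rgs7 (0.669) lies just to their right, all left of the middle of the histogram.

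Close relatives of the 8 genes were followed to see whether whole families were high in BAT. Lists of their families and pathways held 117 genes besides the 8, of which 115 were in the table and 86 could be tested. For BAT against eWAT, edgeR gave 4 calls upward and 5 downward among the 86 (10.5% in all, where 2.71% of all tested genes were called higher and 3.75% lower), with a median log2 difference of 0.01 beside -0.03 over all tested genes. Against iWAT it called 0 of the 86, with 15 at an unadjusted p below 0.05, 5 called by DESeq2 and 0 by limma voom. In iWAT against eWAT it called 0, with 9 at an unadjusted p below 0.05, 2 called by DESeq2 (Ndrg1 and Adrb3) and 0 by limma voom. The 9 calls against eWAT were fewer when a library was left out: 4 without BAT replicate 1, 0 without BAT replicate 2, 2 without either iWAT replicate and 1 without either eWAT replicate.

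Of the closest paralogues with enough counts, edgeR called none in any contrast, while DESeq2 called Gbas higher in BAT than in eWAT. Tmem45a, the relative of Tmem45b, had 108 and 66.5 CPM in BAT, 218 and 125 CPM in iWAT and 148 and 69.7 CPM in eWAT, with log2 differences of -0.31 ± 0.45 for BAT minus eWAT (edgeR adjusted p = 0.708) and -0.97 ± 0.45 for BAT minus iWAT (adjusted p = 0.348). Per length, Tmem45b made up 83.0% and 90.6% of the pair in BAT, 23.7% and 35.4% in iWAT and 8.15% and 18.3% in eWAT. Adrbk1, the more abundant kinase of the same kind, had 31.9 and 31.7 CPM in BAT, 32.5 and 34.7 CPM in iWAT and 55.9 and 43.2 CPM in eWAT. Adrbk2 made up 22.6% and 33.6% of that pair per length in BAT, 6.21% and 4.02% in iWAT and 5.00% and 4.62% in eWAT. Sgk3 had a mean of 38.4 ± 1.40 CPM in BAT, 37.4 ± 3.53 CPM in iWAT and 37.9 ± 0.630 CPM in eWAT. Per length Sgk2 came level with it in BAT alone, at 50.9% and 48.5% of the pair against 14.8% and 13.4% in iWAT and 5.29% and 0% in eWAT. Sgk1, the member named for its induction by serum and glucocorticoids, spread widely between replicates (84.1 and 18.4 CPM in BAT, 182 and 82.2 CPM in iWAT, 72.7 and 47.5 CPM in eWAT).

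Gbas, which encodes Nipsnap2, was more abundant per length than Nipsnap1 in every library, and Nipsnap1 made up 16.4% and 20.1% of the pair in BAT, 5.98% and 5.83% in iWAT and 11.2% and 8.46% in eWAT. Gbas had 198 and 284 CPM in BAT, 153 and 159 CPM in iWAT and 112 and 155 CPM in eWAT, and its log2 difference of 0.85 ± 0.25 for BAT minus eWAT had an edgeR adjusted p of 0.0933. Nipsnap3b averaged 49.9 ± 14.9 CPM in BAT, 39.6 ± 9.02 CPM in iWAT and 43.0 ± 7.35 CPM in eWAT. Fhl2 averaged 28.8 ± 25.0 CPM in BAT, 32.1 ± 25.1 CPM in iWAT and 21.4 ± 12.2 CPM in eWAT, and Fhl3 7.70 ± 4.95 CPM in BAT, 7.34 ± 2.55 CPM in iWAT and 10.7 ± 4.29 CPM in eWAT. Among the relatives of Mme, Ece1 averaged 78.0 ± 22.1 CPM in BAT, 101 ± 21.4 CPM in iWAT and 65.3 ± 14.4 CPM in eWAT, and Mmel1 had too few counts to test. Kifc2 averaged 3.26 ± 1.33 CPM in BAT, 3.73 ± 2.55 CPM in iWAT and 2.61 ± 0.730 CPM in eWAT, and Kifc1 had too few counts to test, as did the relatives of Rgs7, namely Rgs6, Rgs9 and Rgs11. How the authors counted reads that fit several places is not given in the sources used here.

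**Figure D4:**
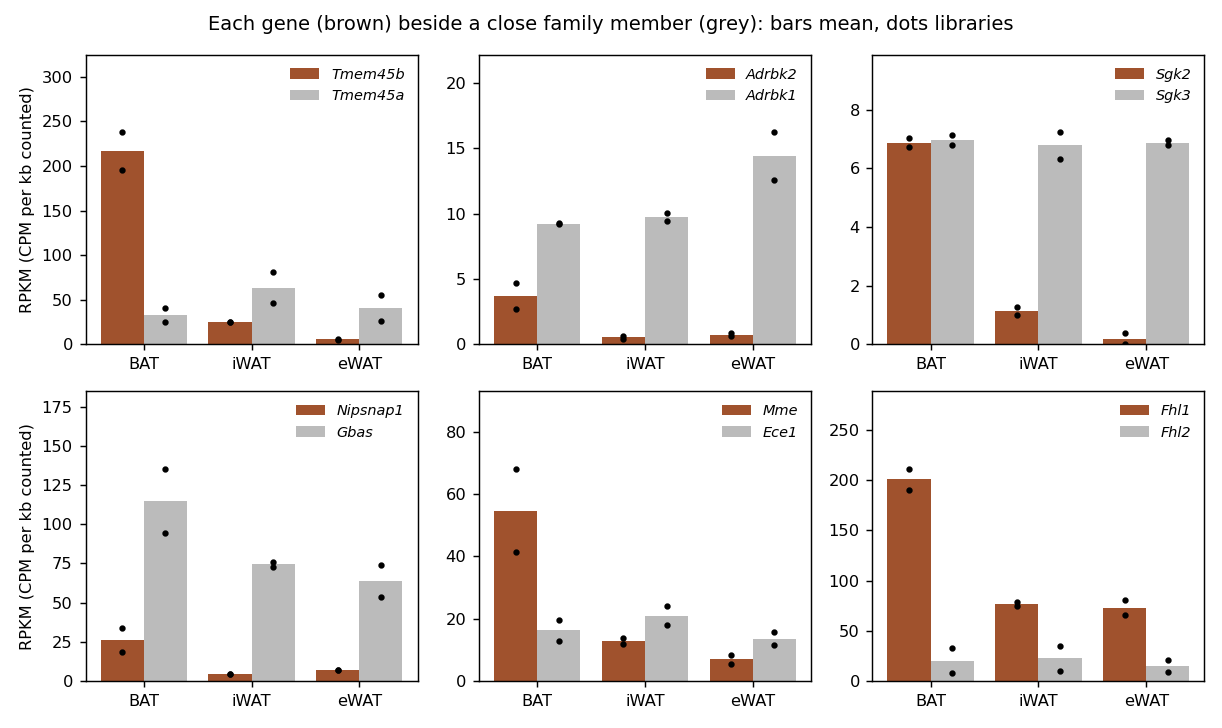
Mean RPKM (bars, axes from 0) and single libraries (dots) of 6 of the 8 genes (brown), each beside a family member (grey), in BAT, iWAT and eWAT, with the relatives of Rgs7 and Kifc3 left out for their low counts. The brown bars are highest in BAT in all 6 panels, while the grey bars of Tmem45a, Adrbk1, Ece1 and Fhl2 are highest in a white depot, that of Gbas is highest in BAT (115 RPKM, against 74.3 in iWAT and 63.6 in eWAT) and those of Sgk3 are nearly level (6.96 RPKM in BAT, 6.79 in iWAT and 6.88 in eWAT).

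By edgeR, no tested partner of the signalling genes was called higher in BAT, which is near the background for so few genes. Gnb5, the beta subunit that Rgs7 binds, had 27.7 and 34.4 CPM in BAT, 32.2 and 39.2 CPM in iWAT and 28.2 and 36.7 CPM in eWAT, with a log2 difference of -0.07 ± 0.24 for BAT minus eWAT (edgeR adjusted p = 0.891). Of the 6 tested genes of the R7 complex and the Gi/o subunits, edgeR called 0 in any contrast. Against eWAT it called 2.71% of all tested genes higher in BAT and 3.75% lower. The BAT minus eWAT differences of the 6 had a median of -0.40, from -1.38 (Rgs7bp) to 1.67 ± 0.48 (Gnao1, edgeR adjusted p = 0.0919). Gnao1 had 5.92 and 6.50 CPM in BAT, 5.77 and 3.02 CPM in iWAT and 1.86 and 1.99 CPM in eWAT. Of 10 other RGS genes, 1, Rgs1, was called lower in BAT than in eWAT (-2.75 ± 0.56, edgeR adjusted p = 0.0436), on 3 and 2 counts in BAT against 17 and 20 counts in eWAT. Rgs1 is known from lymphocytes and other leukocytes. The macrophage marker sum was 428 and 93.7 CPM in BAT against 4675 and 2061 CPM in eWAT, with 5 of its 8 genes called lower, and its part in this was not tested.

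Among the 9 tested receptor kinases, arrestins and beta-adrenergic receptors, BAT had 2 calls downward against eWAT and 0 upward. Adrb3, the beta-adrenergic receptor typical of adipocytes, had 84.1 and 86.4 CPM in BAT against 155 and 172 CPM in eWAT, and fell by 0.94 ± 0.17 on the log2 scale (edgeR adjusted p = 0.0362, from 0.00256 to 0.134 over the alternatives). It had 53.6 and 63.6 CPM in iWAT, and iWAT minus eWAT was -1.48 ± 0.17 (edgeR adjusted p = 0.0759). Arrb2, an arrestin that binds phosphorylated receptors, had 6.97 and 6.88 CPM in BAT against 33.1 and 17.6 CPM in eWAT, and fell by 1.87 ± 0.37 (edgeR adjusted p = 0.0414, from 0.00108 to 0.184 over the alternatives). The macrophage marker sum, 428 and 93.7 CPM in BAT against 4675 and 2061 CPM in eWAT, was lower in BAT too. Its part in the Arrb2 values was not tested. Adrb1 had 10.4 and 7.26 CPM in BAT, 4.81 and 1.26 CPM in iWAT and 0.932 and 2.56 CPM in eWAT, a log2 difference of 2.37 ± 0.74 for BAT minus eWAT that did not pass (edgeR adjusted p = 0.108). Both Adrb3 and Arrb2 lost their call whichever library was left out.

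Of other surface peptidases, 2 were called lower in BAT than in eWAT. Enpep, glutamyl aminopeptidase, had 19.7 and 14.5 CPM in BAT against 73.8 and 121 CPM in eWAT, and fell by 2.49 ± 0.36 (edgeR adjusted p = 0.0252). Anpep, alanyl aminopeptidase, had 1.90 and 1.53 CPM in BAT against 23.1 and 10.5 CPM in eWAT, and fell by 3.25 ± 0.51 (edgeR adjusted p = 0.0286). The macrophage marker sum was lower in BAT than in eWAT as well, and its part in the Anpep values was not tested. Among the 7 tested peptidases 0 were called higher. Enpep kept its call without BAT replicate 1, either iWAT replicate or eWAT replicate 1, and Anpep only without eWAT replicate 2. Npr3, the clearance receptor that removes natriuretic peptides, had 724 and 528 CPM in BAT, 164 and 108 CPM in iWAT and 251 and 84.8 CPM in eWAT, with log2 differences of 1.90 ± 0.52 for BAT minus eWAT (edgeR adjusted p = 0.0812) and 2.21 ± 0.52 for BAT minus iWAT (adjusted p = 0.129) that did not pass.

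Of 17 tested NIPSNAP and mitophagy genes, 2 were called higher in BAT than in eWAT and 0 lower. Bnip3, a mitophagy receptor of the outer mitochondrial membrane, had 367 and 525 CPM in BAT against 107 and 169 CPM in eWAT, and rose by 1.69 ± 0.33 (edgeR adjusted p = 0.0402). Optn, an autophagy receptor, had 118 and 126 CPM in BAT against 73.6 and 69.7 CPM in eWAT, and rose by 0.77 ± 0.16 (edgeR adjusted p = 0.0449). Of 13 tested LIM-domain genes, 2 were called higher against eWAT and 0 lower. Lims2, an adaptor of integrin adhesions, had 47.1 and 47.0 CPM in BAT, 19.2 and 17.6 CPM in iWAT and 12.3 and 9.96 CPM in eWAT, and rose by 2.07 ± 0.22 against eWAT (edgeR adjusted p = 0.0149), while its difference of 1.35 ± 0.21 from iWAT had an edgeR adjusted p of 0.0512. Csrp2 had 70.8 and 53.5 CPM in BAT against 29.8 and 30.7 CPM in eWAT, and rose by 1.04 ± 0.22 (edgeR adjusted p = 0.0466). Bnip3 kept its call without BAT replicate 1 alone and Lims2 without BAT replicate 1 or either iWAT replicate, while Optn, Csrp2 and Rgs1 lost theirs whichever library was left out. Of 9 tested minus-end motor and microtubule genes and 11 tested SGK and AKT genes, 0 were called in any contrast.

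The genes most like the mean of the 8 were found by Pearson's correlation of log2 CPM over the 6 libraries, a description whose points share the libraries and the depots used in the choice. Among 9674 genes compared, the 10 most alike were Ppp3cc, Aasdhppt, Hsdl2, Fkbp3, Nipal3, Sucla2, Zic1, Mtx2, Chchd1 and Psmc6, with r from 0.9926 to 0.9965. The correlation takes no account of the size of a difference, which was small in some of the 10. Psmc6 averaged 218 CPM in BAT, 162 CPM in iWAT and 157 CPM in eWAT, and Aasdhppt 87.4 CPM in BAT, 66.7 CPM in iWAT and 66.1 CPM in eWAT. Zic1, a transcription factor known from brown fat, averaged 8.54 CPM in BAT and 0.366 CPM in iWAT and had 0 counts in both eWAT libraries. Sucla2, a subunit of the mitochondrial succinyl-CoA synthetase, averaged 1521 CPM in BAT, 444 CPM in iWAT and 340 CPM in eWAT. Cox7a1 (r = 0.895, rank 762), Cidea (r = 0.887, rank 825) and Ucp1 (r = 0.843, rank 1184) stood well behind them. Between the 8 genes, r over the 28 pairs ran from 0.723 (Nipsnap1 and Sgk2) to 0.983 (Adrbk2 and Nipsnap1), with a median of 0.925. The single gene most like each was Prr32 for Tmem45b, Isca2 for Mme, Mif4gd for Rgs7, Clasp2 for Adrbk2, Med30 for Sgk2, Fastkd2 for Kifc3, Cdkl3 for Nipsnap1 and Erlin2 for Fhl1. On the scale of log2 (CPM + 1) the gene became Nfu1 for Tmem45b and Dbi for Sgk2.

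Genes next to the 8 on the chromosomes were compared with them. Of the 16 nearest tested genes on either side that do not overlap them, edgeR called 0 in each of the 3 contrasts. Over all tested genes it called 2.71% higher and 3.75% lower in BAT against eWAT, 0.145% higher and 0.895% lower against iWAT, and 0% in iWAT against eWAT, so a count of 0 of 16 is near the background. Their median log2 difference was -0.15 against eWAT and 0.04 against iWAT in BAT, and -0.12 for iWAT minus eWAT. Closest were Thoc5, 1.14 kb from Nipsnap1, with a BAT minus eWAT difference of -0.04 ± 0.23, and Ift52, 3.33 kb from Sgk2, with 0.51 ± 0.19 (edgeR adjusted p = 0.162). Fh1, which encodes the mitochondrial enzyme fumarase and lies 109 kb from Rgs7, came nearest to a call against eWAT, at 1.13 ± 0.26 (edgeR adjusted p = 0.0575).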

How the data were processed

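RNA from cultured BAT, iWAT and eWAT cells was depleted of ribosomal RNA and made into 6 TruSeq libraries (2 each), per the labels' protocols. Reads were aligned with STAR to mm9, per the submitters' processing notes; the sources used here do not give versions, the counting program or strandedness. The count table the authors deposited holds whole-number counts per gene, not normalized per the file headers, with gene lengths, and a further table the authors deposited holds log2 values and fold changes, a likelihood ratio score and p-values, of which only fold changes and adjusted p-values were copied.

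Genes were filtered with filterByExpr by depot (11732 of 20295 kept) and tested with edgeR 4.0.16 in R 4.3.3 (TMM, quasi-likelihood F test, two-sided, 1 fit of all 6 libraries with depot as the only term, 3 residual degrees of freedom), with Benjamini-Hochberg adjustment over all tested genes and a threshold of 0.05. The standard error is the absolute log2 difference divided by the square root of F. RPKM is CPM per kilobase counted. Exact 95% binomial intervals cover counting error. Scripts were tested on simulated data. The 13 alternatives were DESeq2 1.42.0, limma 3.58.1 voom, other size factors, no filter, fits of 2 depots, a replicate block and leaving out each library. The 8 genes, the gene lists and the markers were chosen with earlier results of these data known. The rule for naming genes took the 8, 5 reference genes, their closest paralogues, up to 3 called genes per list and contrast, the 10 genes most alike and the nearest to each. Other genes (Adrb1, Ndrg1, Npr3, Gnb5, Gnao1, Rgs7bp, flanking genes, the other genes called against both white depots, muscle and other cell type markers) were named after their values were seen. Promoter windows are RefSeq's (GRCm38.p6), used apart from the mm9 coordinates. Figures were drawn with matplotlib 3.10.9.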

Additional observations from a re-analysis of the deposited data

How the results depend on the processing

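The direction of all 8 genes for BAT minus eWAT and BAT minus iWAT held under all 13 alternatives, while the counts of calls moved. Against eWAT the 8 calls became 7 with limma voom and 4 in the fit of the 2 depots alone, and ran from 1 to 8 when a library was left out. Against iWAT the 7 calls became 8 with DESeq2, 3 with limma voom and 4 with the 2 depots alone, and ran from 0 to 4 without a library. For iWAT minus eWAT the count of 0 became 1 (Tmem45b) with DESeq2, without the filter and with the replicate block, and stayed at 0 without any 1 library. The reversals were Kifc3, 0.08 without eWAT replicate 1 and 0.10 without iWAT replicate 2, and Fhl1, -0.07 without eWAT replicate 1, all on iWAT minus eWAT, which over the libraries left out ran from -0.59 to 0.10 for Kifc3 and from -0.07 to 0.22 for Fhl1. Of the 86 family genes, the 9 called against eWAT became 16 with DESeq2, 25 without the filter, 5 with limma voom, 2 with the 2 depots alone and 0 to 4 without a library; the 0 against iWAT became 5 with DESeq2, 1 with RLE factors, 9 without the filter, 1 with the 2 depots alone and 0 to 1 without a library; the 0 of iWAT minus eWAT became 2 with DESeq2 and 6 without the filter. Over all genes, the 318 called higher in BAT than eWAT became 599 with DESeq2, 769 without the filter, 39 with the 2 depots alone and 2 to 403 without a library. The 17 higher in BAT than iWAT became 179 with DESeq2, 249 without the filter, 7 with limma voom, 8 with the 2 depots alone and 0 to 7 without a library. The 0 of iWAT minus eWAT became 301 with DESeq2, 557 without the filter, 1 with limma voom, 2 with the 2 depots alone and 0 to 3 without a library. Beyond the fewer libraries in some fits, the cause was not tested. The replicate numbers are not stated to pair the samples, and deviations of same-numbered libraries correlated at 0.448 (BAT and iWAT), 0.412 (BAT and eWAT) and 0.556 (iWAT and eWAT). With the replicate block, family calls were 31, 10 and 7 in the same order of contrasts as above, and calls over all genes were 1276, 534 and 563; among the closest paralogues the block called Adrbk1 (lower) and Gbas (higher) for BAT minus eWAT, Tmem45a and Sgk1 (both lower) for BAT minus iWAT, and Tmem45a and Ece1 (both higher) for iWAT minus eWAT. It called 8 of the 8 genes higher against each white depot. Scaling by library totals alone moved the median of all genes to -0.18 for BAT minus eWAT. With 2 libraries per depot and 5 to 28 counts in white depots, Sgk2 and Rgs7 carry the largest counting error.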
